A study of Mus musculus with 15 samples.

Results

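C2C12 mouse myoblasts made to overexpress wild-type MLX were compared with C2C12 cells that carried the control vector expressing only GFP. The comparison uses 3 MLX-WT libraries and 3 GFP control libraries, 6 of the 15 RNA-seq libraries of the study, chosen by their sample titles, in which the GFP vector is written MCS. Another 9 libraries serve below for side-by-side values: 3 from cells with a construct labelled MLX-DN, 3 from cells with an shRNA against MLX, and 3 from cells with a non-targeting shRNA. All 15 cultures were transduced with lentivirus, so transduction is common to every group, and the growth protocol refers to the GFP vector as an empty vector. C2C12 is an established line of mouse skeletal myoblasts. The labels give no culture time, and they leave unsaid whether replicate libraries were made from different cultures, so the p-values reflect only how far these libraries scatter, and that scatter may be technical. Whether MLX-WT Mlx values include reads from the construct itself could not be told from the files.

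The transcription factor MLX carries a helix-loop-helix and a leucine zipper, and it pairs with MondoA (gene Mlxip), with ChREBP (gene Mlxipl) and with some MAD proteins to bind DNA. The pair of MondoA and MLX is held outside the nucleus when sugar phosphates are low and activates genes such as Txnip and Arrdc4 when they are high, through paired E-box-like sites called carbohydrate response elements. MondoA is the abundant partner in skeletal muscle, where it is known for control of glucose uptake and fuel storage. The study set out to raise and to lower MLX activity in these cells, and the labels do not describe how MLX-DN differs from wild-type MLX.

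The deposited values are log2(FPKM + 2), where FPKM is a level per length of gene and per depth of library, and every level below is given in FPKM. Steps in the low FPKM values placed the depth between 53.0 M and 77.8 M reads in MLX-WT, and between 38.5 M and 82.6 M reads in GFP control. Of 23352 genes, 11945 reached 1 FPKM in at least 3 libraries and were tested with limma over all 15 libraries, and a gene is called here when its Benjamini-Hochberg adjusted p was below 0.05. All differences are those of log2(FPKM + 2), a scale on which changes of low genes look smaller than they are. Pearson correlations were 0.9988 to 0.9989 among MLX-WT libraries and 0.9988 to 0.9991 among GFP control libraries, against 0.9787 to 0.9801 between the 2 groups. With such close replicates even small differences are called, so sizes are given throughout. The myoblast markers (Myod1, Des and others) summed to 2016 to 2058 FPKM in MLX-WT and 1990 to 2018 FPKM in GFP control. Endothelial markers reached at most 0.153 FPKM in sum in MLX-WT and 0.234 in GFP control, and adipocyte markers at most 0.533 in MLX-WT and 0.243 in GFP control. The smooth muscle markers stood apart, at 138.9 to 141.4 FPKM in MLX-WT against 334.7 to 345.6 FPKM in GFP control. In bulk RNA, fewer cells of a type and less RNA per cell cannot be told apart.

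The promoters of the genes on which the comparison of MLX with its known targets turns are shown here, each as RefSeq gives it for GRCm38.p6, 250 bases before to 50 after the gene start, 5′ to 3′ on the gene's strand. They are shown to let the letters be set beside the expression values. Capitals mark the motif found. In Txnip this is the pair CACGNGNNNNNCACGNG, in the other promoters the E-box CACGTG. Txnip and Arrdc4 are the best known targets of MLX with MLXIP, Fgf21 is a glucose-responsive secreted factor, and Mlx, Adh1 and Cmklr1 are the genes changed at least 2-fold against both controls whose window held the E-box. The last 4 were chosen for display after their values were seen.
Txnip is at chr3:96557707-96558006, plus strand.
Txnip: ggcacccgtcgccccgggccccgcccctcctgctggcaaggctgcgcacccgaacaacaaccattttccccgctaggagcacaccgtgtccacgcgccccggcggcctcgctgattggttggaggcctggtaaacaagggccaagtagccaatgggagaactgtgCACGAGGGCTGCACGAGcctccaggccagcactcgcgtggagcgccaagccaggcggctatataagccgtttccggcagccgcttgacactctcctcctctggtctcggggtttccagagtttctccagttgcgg
Arrdc4 is at chr7:68749189-68749488, minus strand, with the E-box at position -193 from the gene start.
Arrdc4: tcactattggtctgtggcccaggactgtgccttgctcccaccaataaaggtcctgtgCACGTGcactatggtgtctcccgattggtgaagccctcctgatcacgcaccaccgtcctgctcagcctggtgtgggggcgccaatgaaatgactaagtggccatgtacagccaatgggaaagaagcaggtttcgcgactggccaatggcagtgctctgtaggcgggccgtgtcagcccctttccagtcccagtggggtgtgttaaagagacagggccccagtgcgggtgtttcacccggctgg
Fgf21 is at chr7:45615441-45615740, minus strand, with the E-box at position -50.
Fgf21: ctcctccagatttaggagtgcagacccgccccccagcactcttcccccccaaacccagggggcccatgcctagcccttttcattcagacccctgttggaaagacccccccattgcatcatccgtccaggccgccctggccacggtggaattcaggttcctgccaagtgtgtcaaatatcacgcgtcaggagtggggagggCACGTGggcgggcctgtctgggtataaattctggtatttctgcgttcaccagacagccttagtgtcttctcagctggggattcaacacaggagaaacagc
Mlx is at chr11:101087040-101087339, plus strand, with the E-box at position -40.
Mlx: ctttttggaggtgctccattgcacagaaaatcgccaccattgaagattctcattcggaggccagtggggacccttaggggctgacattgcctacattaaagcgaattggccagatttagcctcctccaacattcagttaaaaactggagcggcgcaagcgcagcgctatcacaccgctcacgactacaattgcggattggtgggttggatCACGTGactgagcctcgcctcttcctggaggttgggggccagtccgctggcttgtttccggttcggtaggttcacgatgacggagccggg
Adh1 is at chr3:138277335-138277634, plus strand, with the E-box at position 5.
Adh1: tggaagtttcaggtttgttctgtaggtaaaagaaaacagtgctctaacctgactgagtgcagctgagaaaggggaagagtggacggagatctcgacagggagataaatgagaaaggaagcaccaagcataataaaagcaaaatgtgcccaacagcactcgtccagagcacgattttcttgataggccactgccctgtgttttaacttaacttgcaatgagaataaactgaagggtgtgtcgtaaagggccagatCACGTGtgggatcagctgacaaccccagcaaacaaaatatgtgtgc
Cmklr1 is at chr5:113643554-113643853, minus strand, with the E-box at position -145.
Cmklr1: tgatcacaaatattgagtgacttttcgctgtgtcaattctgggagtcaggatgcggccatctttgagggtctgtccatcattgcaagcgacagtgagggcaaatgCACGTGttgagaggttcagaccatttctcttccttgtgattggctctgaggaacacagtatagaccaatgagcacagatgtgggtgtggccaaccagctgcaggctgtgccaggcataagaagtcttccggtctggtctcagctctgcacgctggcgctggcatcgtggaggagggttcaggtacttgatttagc

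Both motifs were searched on both strands of all 32851 promoter windows in the table. The E-box was in 7.15% of all windows and in 10.1% of the 11108 windows of tested genes, which cover 8685 of the 11945 tested genes by symbol. It was in 8 of the 81 matched genes that were at least 2-fold higher in MLX-WT than GFP control (9.88%) and in 5 of the 55 matched genes that were at least 2-fold lower (9.09%), against 12.1% of all matched tested genes. The paired motif, within which an E-box can also lie, was in 16 windows (0.0487%), with Txnip among them, and in no window of the genes changed at least 2-fold. These counts describe the letters in 300-base windows.

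Mlx itself checks the labels. It was at 655, 632 and 645 FPKM in MLX-WT, against 16.6, 17.6 and 17.1 FPKM in GFP control. The groups lay far apart, a 37.6-fold ratio of mean FPKM, with a log2 difference of 5.08 (SE 0.0596, limma Benjamini-Hochberg adjusted p = 7.36e-18). The MLX-DN libraries averaged 394 ± 8.76 FPKM of Mlx, the MLX shRNA libraries 3.21 ± 0.645 FPKM, and the non-targeting shRNA libraries 17.1 ± 0.778 FPKM (SD, n = 3 each). Mlx exons overlap Psmc3ip on the opposite strand over 19.3% of their length, and the labels do not say if reads were counted by strand.

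The network genes named here moved little beside Mlx. At 1.5-fold or more, 2 of the 11 tested network genes were higher than GFP control, Mlx among them, and 0 were lower. The other of these 2 is not named here. Mlxip, which encodes MondoA, was at 3.64, 3.32 and 3.70 FPKM in MLX-WT and 3.88, 3.86 and 4.51 FPKM in GFP control, and the groups did not overlap by a narrow margin (log2 difference -0.13, limma Benjamini-Hochberg adjusted p = 0.0414). That call was lost with median centring. Mlxipl, which encodes ChREBP, was below the expression limit and was not tested. Mxd4, a MAD family repressor, fell to 19.6, 19.8 and 19.4 FPKM in MLX-WT, against 26.5, 25.6 and 25.7 FPKM in GFP control. Max and Myc, the other arm of the network, had log2 differences of 0.00 and 0.05 and were not called, but were called at 0.07 and 0.12 with median centring. Of the 11 tested network genes, Mlx included, 4 were higher and 4 lower, or 7 and 2 with median centring, beside a background of 70.3% of all tested genes called in this comparison and 76.4% whose groups did not overlap.

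Txnip, the best known MLX target, was slightly higher than in GFP control. The gene, for an arrestin-like protein that limits glucose uptake, was at 37.4, 37.0 and 39.4 FPKM in MLX-WT and 30.5, 29.1 and 31.0 FPKM in GFP control. All 3 MLX-WT libraries lay above all 3 GFP control libraries, with a log2 difference of 0.31 (SE 0.0386, limma Benjamini-Hochberg adjusted p = 3.44e-06). Against the non-targeting shRNA, where Txnip averaged 39.3 FPKM, the difference was -0.05 and was not called. The same gene averaged 1.31 FPKM in MLX-DN and 4.72 FPKM in MLX shRNA libraries, so its MLX-WT level was near that of both controls and far above that of MLX-DN and MLX shRNA. Txnip overlaps Gm15441 on the opposite strand over 19.4% of its exons. Arrdc4, a paralog of Txnip, was too low to be tested, at 0.738, 0.910 and 0.882 FPKM in MLX-WT and 0.405, 0.354 and 0.338 FPKM in GFP control.

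Fgf21, a secreted regulator of metabolism, shows how the answer depends on the control. It was at 47.5, 46.5 and 46.8 FPKM in MLX-WT, against 5.34, 6.42 and 6.15 FPKM in GFP control. The groups did not overlap and the log2 difference was 2.62 (SE 0.0466, limma Benjamini-Hochberg adjusted p = 4.76e-16). The non-targeting shRNA libraries, however, averaged 44.4 FPKM, and the difference from them was 0.08 and was not called. Of the 17 tested glucose-responsive genes, 10 were higher and 7 lower than GFP control, with a median of 0.21 beside -0.05 for all tested genes. Of all tested genes, 27.6% were higher and 42.7% lower than GFP control. The genes named here are all among the higher ones. The 7 lower genes are not named, and the largest fall among them was a log2 difference of -0.40. Scd1, a fatty acid desaturase, rose to 106, 105 and 106 FPKM in MLX-WT, against 70.0, 68.8 and 71.0 FPKM in GFP control. Scd1 is also 1 of 14 tested fatty acid synthesis genes, of which 3 were higher and 9 lower than GFP control (median -0.14). Pfkfb3, which drives glycolysis through fructose 2,6-bisphosphate, had a log2 difference of 0.52 from GFP control and 0.65 from the non-targeting shRNA. Hk2, a hexokinase, had 0.31 and 0.14 in the same order of comparison.

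**Figure D1:**
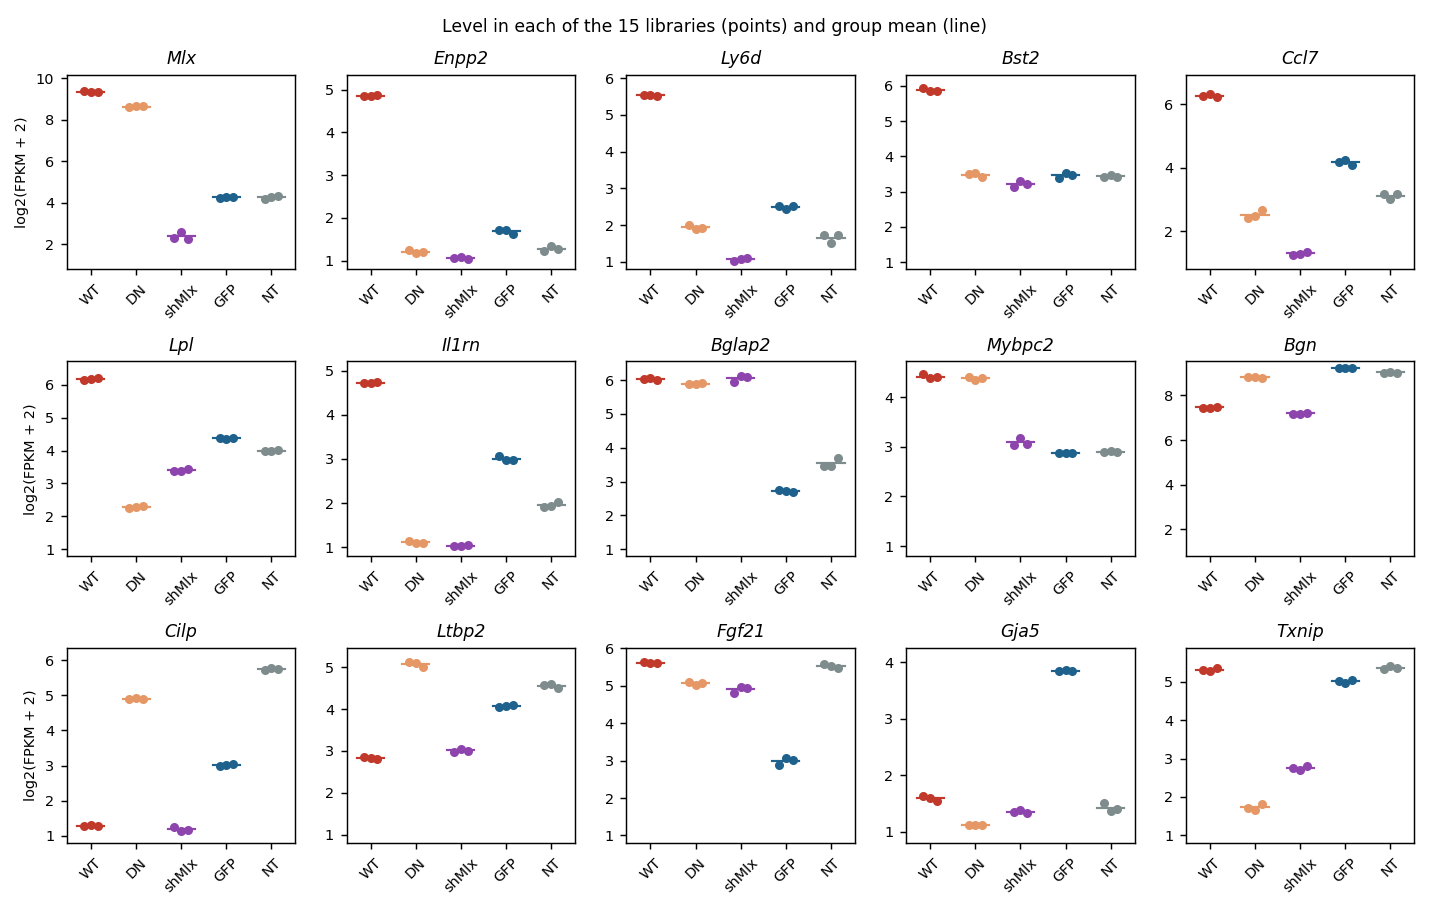
Level as log2(FPKM + 2) in each of the 15 libraries for 15 genes the results turn on, with groups from left to right MLX-WT, MLX-DN, MLX shRNA (shMlx), GFP control and non-targeting shRNA (NT), points for libraries and a line for the mean of each group. Mlx is at 632 to 655 FPKM in the MLX-WT libraries and 16.6 to 17.6 FPKM in the GFP control libraries.

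Across all tested genes, 3300 were higher in MLX-WT than GFP control (27.6%) and 5100 were lower (42.7%), but most differences were small. At 1.5-fold or more, 410 were higher (3.43%) and 409 lower (3.42%). At 2-fold or more, 114 were higher (0.954%) and 86 lower (0.720%), and at 4-fold 14 were higher and 3 lower. Among the 94 genes named in the text that were called, standard errors ran from 0.0189 to 0.167, and the 57 of them changed at least 2-fold had limma Benjamini-Hochberg adjusted p-values of at most 1.1e-07. The split between the directions depends on the scaling of the libraries: it was 4511 higher and 3775 lower when each library was centred on its median, and 3994 higher and 4343 lower with quantile normalization. Relative to each of the controls, 1362 genes were called higher (11.4% of tested genes) and 2813 lower (23.5%), or 2165 and 1625 with median centring.

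The GFP control libraries often lay at the edge of the 15. In 81 of the 86 genes at least 2-fold lower in MLX-WT (94.2%), the 3 GFP control libraries were the highest of all 15. In 64 of the 114 genes at least 2-fold higher (56.1%), GFP control was the lowest of the 15. The MLX-WT libraries were the highest of the 15 in 58 of those 114 (50.9%) and the lowest in 14 of the 86 (16.3%). Over all tested genes, GFP control was the highest of the 15 in 23.1% and the lowest in 15.2%. For MLX-WT the same shares were 6.11% and 8.06%. Selecting genes on this comparison favours both groups as extremes, so these counts are a description only. Gja5, which encodes the gap junction protein connexin 40, fell to 1.104, 1.02 and 0.917 FPKM in MLX-WT, against 12.3, 12.6 and 12.3 FPKM in GFP control. Its difference from the non-targeting shRNA was 0.17 in the opposite direction. Gja5 passed the expression limit for testing only with the GFP control libraries. Hpgd, a prostaglandin-degrading enzyme, had a log2 difference of -1.91 from GFP control and 1.04 from the non-targeting shRNA. Mybpc1, the slow-muscle myosin binding protein C, had -1.89 and 1.49, and Crym, a thyroid hormone binding protein, had -1.87 and 0.56. The genes that differed in the same direction from both controls are described first below, and the MLX-WT libraries are shared by both of those comparisons.

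Against the non-targeting shRNA, 3067 genes were higher in MLX-WT (25.7%) and 5288 lower (44.3%), together 69.9%, or 4230 and 3643 with median centring. The called counts of each gene list below stand beside these shares, and beside 27.6% higher and 42.7% lower for GFP control. Relative to each of the controls, 39 genes were higher by 2-fold or more (0.326% of tested genes) and 9 lower (0.0753%). Of the 39, 29 were also at least 2-fold higher than in MLX-DN (0.243% of tested genes), and the MLX-WT libraries were the highest of the 15 in 34. The 39 were picked on the same MLX-WT libraries, which favours both counts, so they are a description only. Over all tested genes MLX-WT was the highest of the 15 in 6.11%.

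**Figure D2:**
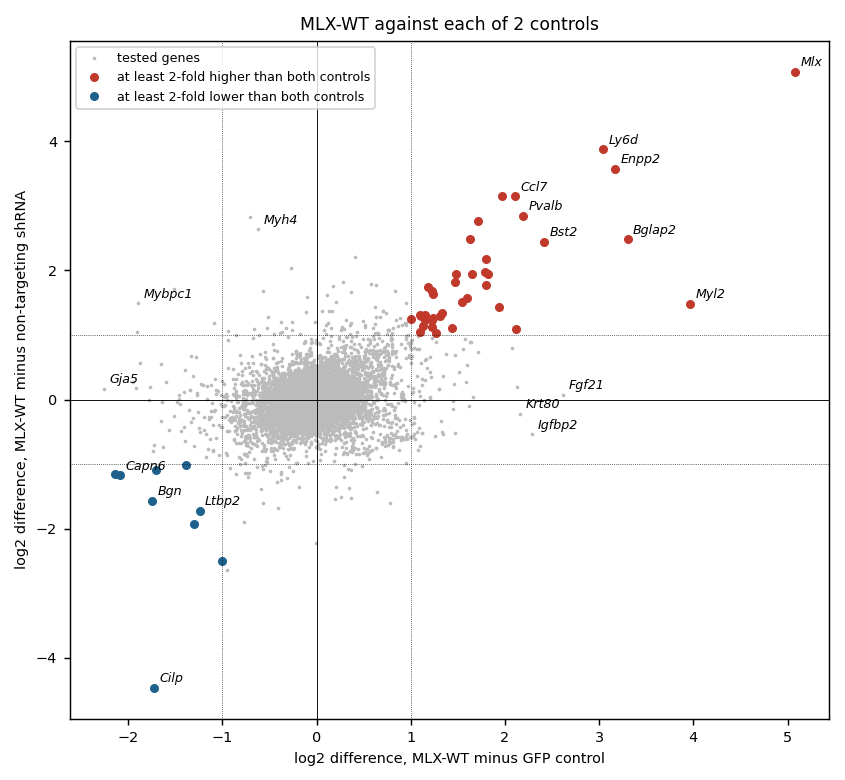
Log2 difference of MLX-WT from GFP control on the horizontal axis and from non-targeting shRNA on the vertical axis, both on the log2(FPKM + 2) scale, with 1 point for each tested gene, and the 39 genes higher and 9 lower than both controls by at least 2-fold coloured. The axes share the MLX-WT libraries, so the tilt of the cloud is not a result.

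Some of the genes that rose against both controls act on lipids. Enpp2, the gene for autotaxin, a secreted lysophospholipase D that releases lysophosphatidic acid, was at 27.0, 26.6 and 27.2 FPKM in MLX-WT, against 1.27, 1.29 and 1.102 FPKM in GFP control. No other group came near the MLX-WT level, with 0.304 FPKM in MLX-DN and 0.426 FPKM in the non-targeting shRNA libraries. The log2 difference was 3.17 from GFP control (SE 0.0343, limma Benjamini-Hochberg adjusted p = 6.48e-18) and 3.58 from the non-targeting shRNA. Lpl, lipoprotein lipase, which frees fatty acids from circulating triglyceride, rose to 68.7, 69.4 and 71.9 FPKM in MLX-WT, against 19.02, 18.4 and 18.6 FPKM in GFP control. It averaged 2.89 FPKM with MLX-DN, 8.55 FPKM with MLX shRNA and 13.98 FPKM with the non-targeting shRNA. Tmem86a, an enzyme that breaks down lysoplasmalogens, rose to 70.1, 68.3 and 70.1 FPKM in MLX-WT, against 21.2, 20.6 and 21.3 FPKM in GFP control. Over the whole list of 16 lysolipid and lipid uptake genes, 7 were higher and 8 lower than GFP control, with a median of -0.11. The background was 27.6% higher and 42.7% lower among all tested genes. Cd36, the fatty acid translocase, fell to 1.75, 1.62 and 1.96 FPKM in MLX-WT, against 10.1, 9.86 and 9.64 FPKM in GFP control, and had a log2 difference of 0.55 from the non-targeting shRNA.

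The monocyte chemoattractants Ccl2 and Ccl7, neighbours in a chemokine cluster, rose together. Ccl7 was at 75.0, 78.2 and 72.0 FPKM in MLX-WT, against 16.1, 16.9 and 14.8 FPKM in GFP control, a log2 difference of 2.10 (SE 0.0632, limma Benjamini-Hochberg adjusted p = 1.83e-13). Ccl2 was at 33.3, 32.4 and 32.3 FPKM in MLX-WT, against 6.83, 6.29 and 7.58 FPKM in GFP control, a log2 difference of 1.96. Both were lower still with the non-targeting shRNA, at 6.67 FPKM for Ccl7 and 1.88 FPKM for Ccl2. Il1rn, the secreted antagonist of the interleukin-1 receptor, rose to 24.5, 24.2 and 24.7 FPKM in MLX-WT, against 6.36, 5.92 and 5.84 FPKM in GFP control. It averaged 0.156 FPKM in MLX-DN and 0.0484 FPKM with MLX shRNA. Cxcl1, a neutrophil chemoattractant, had a log2 difference of 0.56 from GFP control and 0.52 from the non-targeting shRNA. Cxcl1 passed the expression limit for testing only with the MLX-WT libraries, and it is counted among the higher genes of the list that follows. Of the 14 tested chemokines and cytokines, 10 were higher and 3 lower than GFP control, with a median of 0.32, and 8 were higher than both controls, beside 11.4% of all tested genes. Against GFP control alone, 27.6% of all tested genes were higher and 42.7% lower. The immune cell markers summed to 1.95 to 2.72 FPKM in MLX-WT and 1.36 to 1.81 FPKM in GFP control, and their part in these values was not tested.

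Genes of the interferon response and of antigen presentation were mostly higher, with a wide range of sizes. Among all tested genes, 27.6% were higher than GFP control and 25.7% higher than the non-targeting shRNA. Bst2, tetherin, which holds budding virus at the cell surface, was at 59.6, 55.6 and 55.7 FPKM in MLX-WT, against 8.55, 9.51 and 9.06 FPKM in GFP control. The other 3 groups were near the GFP control level, at 9.21 FPKM in MLX-DN, 7.33 FPKM with MLX shRNA and 8.80 FPKM with the non-targeting shRNA. Isg15, a ubiquitin-like modifier, was at 8.01, 6.94 and 7.17 FPKM in MLX-WT, against 2.39, 2.70 and 2.95 FPKM in GFP control. Lgals3bp, a secreted galectin-binding glycoprotein, had a log2 difference of 1.47 from GFP control and 1.83 from the non-targeting shRNA, and Ifit3, an antiviral effector, had 0.76 and 0.72. Ifit3 passed the expression limit for testing only through the MLX-WT libraries. Among 20 interferon effectors, 14 were higher and 2 lower than GFP control, with a median of 0.15, and 15 were higher and 2 lower than the non-targeting shRNA, with a median of 0.36. Of 13 upstream sensors and transcription factors, 6 were higher and 5 lower than GFP control, with a median of 0.00. Of 10 interferon GTPase genes, 7 were higher and 2 lower than GFP control (median 0.28), and 10 were higher than the non-targeting shRNA (median 0.53). Against MLX-DN 4 were higher and 5 lower (median -0.09), beside 38.9% and 33.2% of all tested genes. With MLX shRNA 6 were higher and 1 lower than with the non-targeting shRNA (median 1.31), beside 30.8% and 39.3%.

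Psmb8, a catalytic subunit of the immunoproteasome, which cuts peptides for display, was at 4.39, 3.99 and 3.39 FPKM in MLX-WT, against 0.760, 0.772 and 0.762 FPKM in GFP control. Tap2, a subunit of the peptide transporter of the endoplasmic reticulum, rose by 0.64 against GFP control and 1.03 against the non-targeting shRNA on the log2 scale. The class I heavy chain H2-K1 had 39.5, 38.5 and 40.9 FPKM in MLX-WT, against 21.1, 21.6 and 21.4 FPKM in GFP control, and may share reads with H2-D1. Of 13 antigen presentation genes, 10 were higher and 2 lower than GFP control (median 0.21), and 12 were higher and none lower than the non-targeting shRNA (median 0.54).

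Ly6d, a glycolipid-anchored surface protein, was among the largest rises, at 44.7, 44.3 and 43.9 FPKM in MLX-WT, against 3.72, 3.40 and 3.75 FPKM in GFP control. Adh1, an alcohol dehydrogenase that also acts on retinol, rose to 6.44, 6.56 and 7.01 FPKM in MLX-WT, against 0.633, 0.477 and 0.427 FPKM in GFP control. Only the MLX-WT libraries brought Adh1 past the expression limit for testing. Nov, a matricellular CCN protein, rose to 7.81, 7.62 and 8.13 FPKM in MLX-WT, against 1.24, 1.15 and 1.03 FPKM in GFP control. In each of these 3 genes the non-targeting shRNA libraries averaged less than the GFP control libraries, at 1.16 FPKM for Ly6d, 0.210 FPKM for Adh1 and 0.550 FPKM for Nov. Pi15, a secreted peptidase inhibitor, had log2 differences of 1.80 from GFP control and 1.77 from the non-targeting shRNA. Npr3, the clearance receptor for natriuretic peptides, had 1.44 and 1.11, and Mgst1, a membrane glutathione transferase, had 1.15 and 1.31. The haemoglobin genes Hba-a1 and Hba-a2, near-identical copies whose reads cannot be split with certainty, were at 7.58, 9.85 and 6.86 FPKM and at 8.97, 11.9 and 10.4 FPKM in MLX-WT. In GFP control Hba-a1 was at 1.43, 1.36 and 1.17 FPKM and Hba-a2 at 1.41, 2.03 and 1.14 FPKM.

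A few transcripts were present in the MLX-WT libraries and at or near 0 in the other 12. By a limit of at least 1 FPKM in all 3 MLX-WT libraries and less than 0.1 FPKM in every other library, there were 5 such genes in MLX-WT, and there was none by the same limit in GFP control. All 5 passed the expression limit for testing only through the MLX-WT libraries, so their calls add nothing to the levels. Dct, Tekt3 and Opcml are also counted among the 39. Dct, a melanin synthesis enzyme, was at 2.72, 2.67 and 2.65 FPKM in MLX-WT and is listed at 0 in all 3 GFP control libraries. Tekt3, a tektin of cilia and flagella, was at 3.09, 3.18 and 2.90 FPKM in MLX-WT, against 0.0069, 0 and 0 FPKM in GFP control. Opcml, a neuronal adhesion protein, was at 2.36, 2.44 and 2.36 FPKM in MLX-WT, against 0.0161, 0.0110 and 0.0043 FPKM in GFP control. Ndp, which encodes the Wnt receptor ligand norrin, and Slitrk1, a synaptic adhesion protein, were at 1.31, 1.40 and 1.42 FPKM and at 1.18, 1.07 and 1.204 FPKM in MLX-WT. In GFP control Ndp was at most 0.0228 FPKM and Slitrk1 at most 0.0061 FPKM. A count of 3 reads in a gene of 2000 bases comes to 0.0182 to 0.0390 FPKM in the GFP control libraries, so most of these GFP control values lie below what 3 reads would give. The functions of these 5 genes lie in different tissues, and Ndp and Slitrk1 were named after their values were seen.

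**Figure D3:**
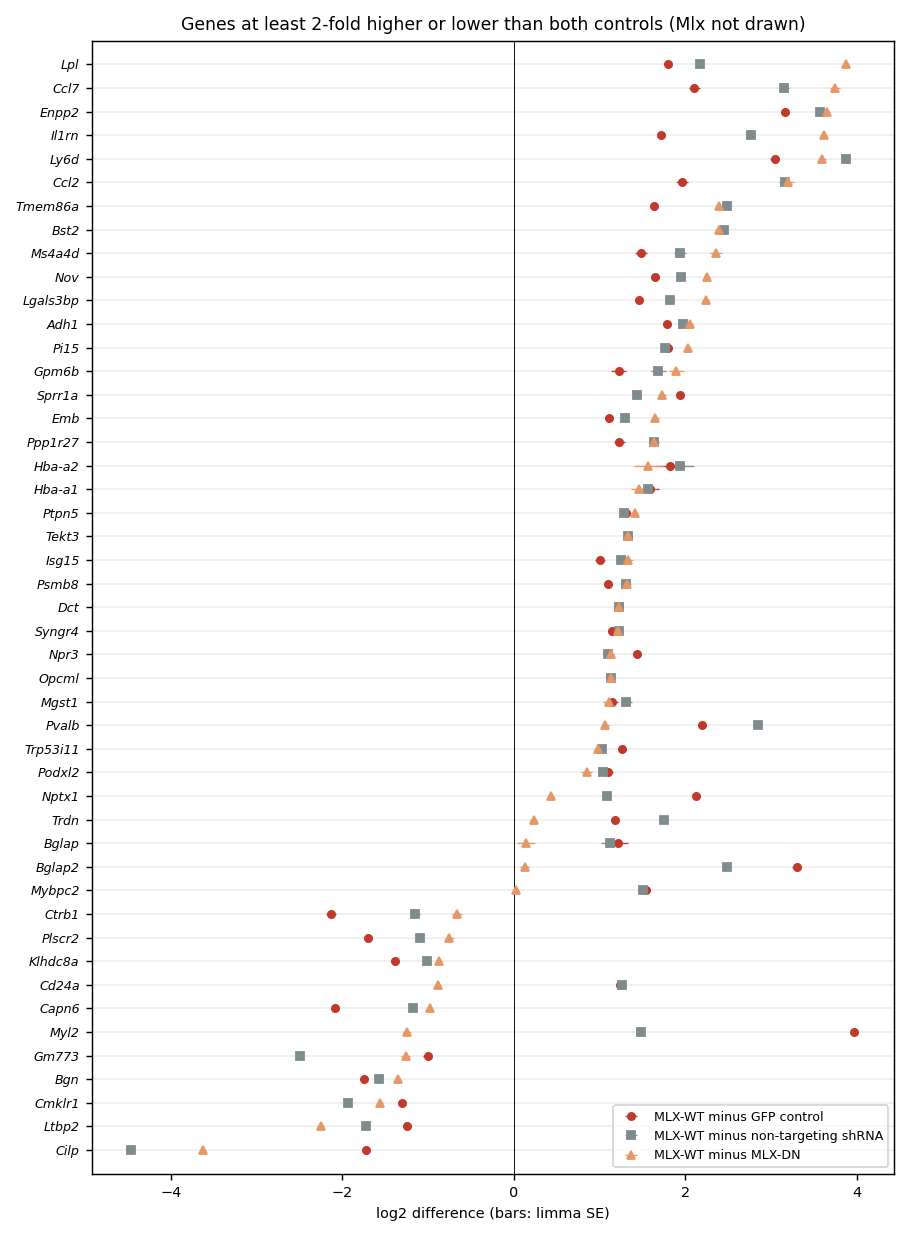
Log2 difference of MLX-WT from GFP control, from non-targeting shRNA and from MLX-DN for the 47 genes other than Mlx that were at least 2-fold higher or lower than both controls, with limma standard errors as bars, on the log2(FPKM + 2) scale. The 3 comparisons share the MLX-WT libraries. Myl2 is at 3.97 and 1.49 against the controls and at -1.25 against MLX-DN. The values of low genes, Dct, Opcml and Tekt3 among them, depend on the offset of 2. Over all alternatives tried, the difference from GFP control ran from -3.51 to -1.66 for Cilp and from 1.76 to 3.48 for Adh1.

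Several muscle genes and the osteocalcin genes Bglap and Bglap2 were also among the 39 that rose against both controls. The bone lineage list as a whole was split, with 4 of 9 tested genes higher and 3 lower than GFP control (median 0.05), beside 27.6% and 42.7% of all tested genes. Of the 39, 35 were also called higher than MLX-DN, while Myl2 and Cd24a were lower and Bglap and Mybpc2 were not called. The shared MLX-WT libraries favour such calls, and 38.9% of all tested genes were called higher than MLX-DN. Myl2, the regulatory light chain of slow and cardiac myosin, was at 74.1, 78.3 and 74.1 FPKM in MLX-WT, against 2.90, 2.91 and 3.03 FPKM in GFP control. It averaged 182 FPKM in MLX-DN and 25.7 FPKM with the non-targeting shRNA, and was lower in MLX-WT than in MLX-DN by a log2 difference of -1.25. Mybpc2, the fast-muscle myosin binding protein C, was at 20.03, 18.8 and 19.2 FPKM in MLX-WT, against 5.30 FPKM in each GFP control library. Its MLX-DN mean of 18.9 FPKM differed by 0.03 on the log2 scale and was not called. Bglap2, an osteocalcin gene with near-identical neighbours, was at 63.1, 64.3 and 61.6 FPKM in MLX-WT, against 4.71, 4.57 and 4.51 FPKM in GFP control. It averaged 57.5 FPKM in MLX-DN and 64.1 FPKM with MLX shRNA, against 9.66 FPKM with the non-targeting shRNA. Pvalb, the calcium buffer of fast fibres, averaged 73.3 FPKM in MLX-WT, 33.9 FPKM in MLX-DN, 14.5 FPKM in GFP control and 8.48 FPKM with the non-targeting shRNA.

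The contractile lists as a whole gave different answers by control. The background was 27.6% higher and 42.7% lower against GFP control, and 25.7% and 44.3% against the non-targeting shRNA. Of 28 thin filament and Z-disc genes, 13 were higher and 11 lower than GFP control (median 0.07), but 25 were higher and 1 lower than the non-targeting shRNA (median 0.57). Of 8 heavy myosins, 4 were higher and 3 lower than GFP control (median 0.07), and all 8 were higher than the non-targeting shRNA (median 1.02). Myh4, the fastest heavy chain, fell to 103, 101 and 104 FPKM in MLX-WT, against 159, 155 and 161 FPKM in GFP control, while its difference from the non-targeting shRNA was 2.64. Myh8, the perinatal heavy chain, was higher than both, by 0.41 and 2.22. Actn2, the Z-disc actinin, had a log2 difference of -0.94 from GFP control and 1.06 from the non-targeting shRNA. Myog, the myogenic factor that drives differentiation, was at 603, 587 and 613 FPKM in MLX-WT, against 442, 449 and 444 FPKM in GFP control, and had -0.13 against the non-targeting shRNA.

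Of the 9 genes at least 2-fold lower than both controls, 3 encode matrix proteins. Bgn, biglycan, a small proteoglycan that binds collagen, fell to 174, 173 and 179 FPKM in MLX-WT, against 591, 595 and 596 FPKM in GFP control. The log2 difference was -1.75 (SE 0.0219, limma Benjamini-Hochberg adjusted p = 1.45e-17) and was -1.57 from the non-targeting shRNA. Cilp, a cartilage matrix protein that binds growth factors, fell to 0.417, 0.457 and 0.453 FPKM in MLX-WT, against 5.88, 6.15 and 6.22 FPKM in GFP control. Cilp averaged 28.1 FPKM in MLX-DN, and the 2 controls were far apart, with 51.8 FPKM in the non-targeting shRNA libraries. Ltbp2, which binds to fibrillin microfibrils, was at 5.27, 5.10 and 5.05 FPKM in MLX-WT, against 14.7, 14.8 and 15.2 FPKM in GFP control. Outside the matrix, Capn6, a calpain without protease activity, had 2.40, 2.26 and 2.22 FPKM in MLX-WT, against 16.3, 15.7 and 16.7 FPKM in GFP control. Cmklr1, the chemerin receptor, had 1.93, 1.69 and 1.88 FPKM in MLX-WT, against 7.21, 7.81 and 7.38 FPKM in GFP control. Ctrb1, Klhdc8a, Gm773 and Plscr2 made up the 9, with log2 differences of -2.14, -1.39, -1.01 and -1.70 from GFP control. All 9 were also lower than in MLX-DN, 5 of them by at least 2-fold (0.0419% of tested genes), and the MLX-WT libraries were the lowest of the 15 in 5 of them. The 9 were picked on the same MLX-WT libraries, which favours such counts. Over all tested genes MLX-WT was the lowest of the 15 in 8.06%.

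Collagens and basement membrane genes were more widely lower than GFP control. Col1a1, the main chain of type I collagen, fell to 149, 147 and 149 FPKM in MLX-WT, against 438, 448 and 442 FPKM in GFP control, and was lower than the non-targeting shRNA by a log2 difference of -0.46. In MLX-DN Col1a1 averaged 41.9 FPKM, and MLX-WT was higher than MLX-DN by 1.78. Of 9 fibrillar collagens, 8 were lower and 1 higher than GFP control (median -0.44), and 6 were lower than both controls, beside 23.5% of all tested genes. Against MLX-DN 4 of them were higher and 5 lower. Col4a1, a chain of the basement membrane network, fell to 27.0, 26.8 and 26.1 FPKM in MLX-WT, against 61.0, 61.1 and 63.1 FPKM in GFP control. Of 17 basement membrane genes, 15 were lower and 2 higher than GFP control (median -0.37), and 9 were lower than both, beside the same 23.5%. Compared with the non-targeting shRNA, 11 of the 17 were lower and 5 higher. Compared with MLX-DN, 7 were lower and 7 higher (median 0.06). Of 7 small proteoglycans, 5 were lower and 1 higher than GFP control (median -0.58). The matricellular genes were split, with 4 of 15 higher and 9 lower (median -0.21). These list counts stand beside 27.6% higher and 42.7% lower than GFP control among all tested genes. Thbs2, an inhibitor of vessel growth, rose to 151, 148 and 154 FPKM in MLX-WT, against 75.8, 76.7 and 78.8 FPKM in GFP control, while Postn, periostin, fell to 24.8, 23.6 and 25 FPKM in MLX-WT, against 48.9, 48.6 and 50.02 FPKM in GFP control. The fibroblast markers summed to 70.2 to 71.6 FPKM in MLX-WT and 54.6 to 56.1 FPKM in GFP control, with 3 of the 4 tested markers higher and 1 lower, and their part in the matrix values was not tested.

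Targets of serum response factor and smooth muscle actin genes were lower as well. Actg2, smooth muscle gamma actin, fell to 90.8, 92.9 and 92.9 FPKM in MLX-WT, against 261, 269 and 270 FPKM in GFP control, and its difference from the non-targeting shRNA was -0.25. Tagln, an actin-bundling protein, fell to 151, 150 and 156 FPKM in MLX-WT, against 341, 351 and 344 FPKM in GFP control, and its difference from the non-targeting shRNA was -0.88. Of the 18 tested genes of this list, 14 were lower and 3 higher than GFP control (median -0.41), and 9 were lower and 8 higher than the non-targeting shRNA (median -0.07). Of all tested genes, 42.7% were lower than GFP control and 44.3% lower than the non-targeting shRNA. Actg2 and Cnn1 also belong to the smooth muscle markers whose sum was lower in MLX-WT, so these are not separate measurements.

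**Figure D4:**
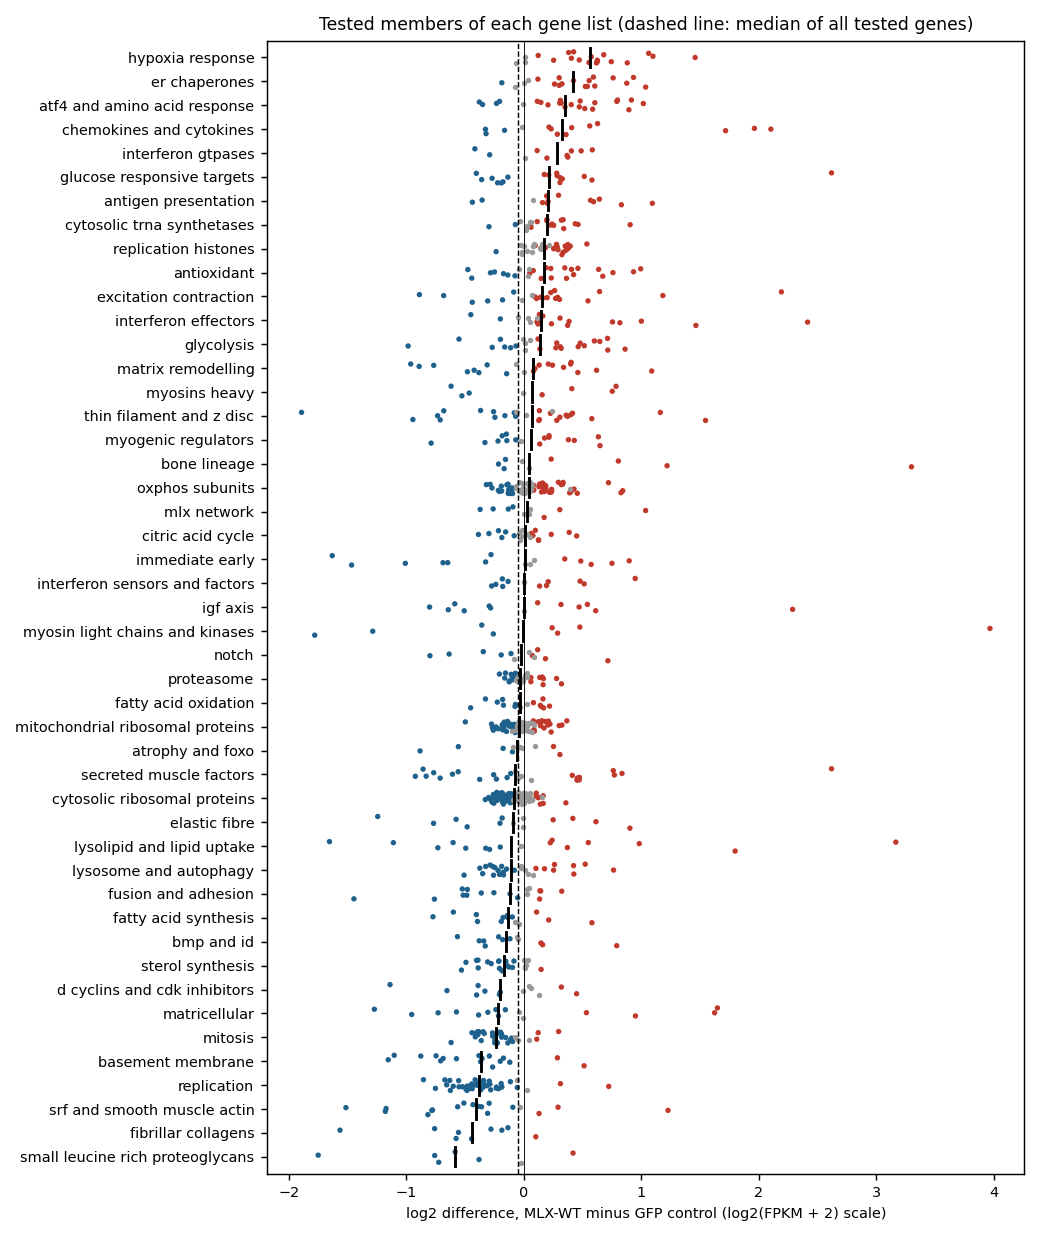
Log2 difference of MLX-WT from GFP control for each tested member of the gene lists, with Mlx left out. Red points were called higher, blue points lower and grey points were not called, the black bar is the list median and the dashed line the median of all tested genes, -0.05.

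Genes of the hypoxia response were higher than GFP control in 17 of 20, with none lower and a median of 0.57, while against the non-targeting shRNA 12 were higher and 5 lower (median 0.26). Bnip3, a mitophagy receptor, rose to 67.6, 66.6 and 66.5 FPKM in MLX-WT, against 23.8, 21.7 and 23.7 FPKM in GFP control, and by 0.24 on the log2 scale against the non-targeting shRNA. Pdk1, which restrains entry of pyruvate into the citric acid cycle, had a log2 difference of 1.101 from GFP control and 0.05 from the non-targeting shRNA, where it was not called. Of 25 glycolysis genes, 14 were higher and 7 lower than GFP control (median 0.14), and 19 were higher and 5 lower than the non-targeting shRNA (median 0.29). Both lists stand beside 27.6% of all tested genes higher than GFP control and 25.7% higher than the non-targeting shRNA. Pgk1, phosphoglycerate kinase, was higher than both, by 0.65 and 0.29.

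Endoplasmic reticulum chaperones were higher than GFP control but lower than the non-targeting shRNA. Among all tested genes, 27.6% were higher than GFP control and 44.3% lower than the non-targeting shRNA. Hspa5, the main chaperone BiP, was at 485, 482 and 494 FPKM in MLX-WT, against 323, 319 and 316 FPKM in GFP control, and had a log2 difference of -0.29 from the non-targeting shRNA. Of 19 tested chaperone genes, 15 were higher and 1 lower than GFP control (median 0.42), whereas 2 were higher and 16 lower than the non-targeting shRNA (median -0.30). Amino acid response genes driven by ATF4 were higher in 18 of 23 and lower in 4 against GFP control (median 0.35), and 7 were higher and 11 lower than the non-targeting shRNA (median -0.03). Psat1 and Asns, enzymes of serine and asparagine synthesis, had log2 differences of 1.02 and 0.90 from GFP control and 0.17 and 0.08 from the non-targeting shRNA.

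A stretch of chromosome 8 moved as a block, which touches some of these genes. Among expressed genes in chromosome order, the running median of 15 neighbours passed a log2 difference of 0.35 over 88 tested genes running along the chromosome, first Lsm6 and last Rpgrip1l, of which 83 were higher and 3 lower in MLX-WT than GFP control. Their median difference was 0.70 from GFP control, -0.57 from the non-targeting shRNA and -0.405 from MLX-DN. A second stretch of 21 genes nearby on chromosome 8, first Irx3 and last Coq9, had 16 higher and 3 lower, with a median of 0.58 from GFP control and -0.35 from the non-targeting shRNA. Lsm6 was at 18, 17.1 and 19.01 FPKM in MLX-WT, against 9.25, 8.42 and 9.22 FPKM in GFP control. The chaperone gene Calr lies in the first stretch, at 701, 703 and 728 FPKM in MLX-WT, against 388, 377 and 393 FPKM in GFP control. Without the genes of both stretches, 13 of 17 chaperone genes were higher and 1 lower than GFP control (median 0.33), and the counts at least 2-fold against both controls were 39 and 9. The same limit was passed in the lower direction by 8 shorter stretches of 1 to 9 tested genes on chromosomes 5, 6 and 8, in which no gene was higher, the longest with 8 of 9 genes lower and a median of -0.32. The limit that defines the stretches was chosen after the data were seen, and DNA copy number was not measured here.

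Most genes of DNA replication and mitosis were lower than GFP control, by modest amounts. Of 31 replication-dependent histone genes, whose near-identical copies may share reads, 18 were higher, 1 lower and 12 not called against GFP control (median 0.17). Against the non-targeting shRNA 30 were higher and none lower (median 0.41). The libraries were made from polyadenylated RNA, and how fully they capture histone transcripts was not tested. The histone values are therefore not set against those of the replication genes. Of 42 replication genes, 38 were lower and 2 higher (median -0.38), and 26 were lower and 3 higher than the non-targeting shRNA (median -0.16). Uhrf1, which maintains DNA methylation through replication, fell to 9.05, 9.55 and 9.41 FPKM in MLX-WT, against 18.1, 18.6 and 18.8 FPKM in GFP control. Mcm2, a subunit of the replicative helicase, fell to 14.3, 14.6 and 13.7 FPKM in MLX-WT, against 23.6, 23.6 and 23.3 FPKM in GFP control. Of 35 mitosis genes, 29 were lower and 3 higher than GFP control (median -0.23), but 22 were higher and none lower than the non-targeting shRNA (median 0.11). The background was 42.7% lower and 27.6% higher against GFP control, and 44.3% and 25.7% against the non-targeting shRNA. Ccnb1, cyclin B1, was among the 3 that rose, with a log2 difference of 0.30.

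Sterol synthesis and ribosomal protein genes gave small values. Of 22 sterol synthesis genes, 16 were lower and 1 higher than GFP control (median -0.17), and 12 were lower than both controls, beside 23.5% of all tested genes as deposited. With median centring 10 of the 22 genes were lower and 5 higher than GFP control. Of 80 cytosolic ribosomal proteins, 41 were lower and 8 higher than GFP control (median -0.08), which was 23 and 15 with median centring, whereas 70 were higher and 2 lower than the non-targeting shRNA (median 0.25). As deposited, 42.7% of all tested genes were lower and 27.6% higher than GFP control. Against the non-targeting shRNA these shares were 44.3% and 25.7%.

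MLX-WT and MLX-DN both carried high Mlx transcript, and the comparison between them shares the MLX-WT libraries with those above. In it, 4651 genes were higher in MLX-WT (38.9%) and 3967 lower (33.2%), together 72.1%, and 113 were higher (0.946%) and 44 lower (0.368%) at 2-fold or more. Lpl, Ccl7, Enpp2 and Il1rn had the largest differences among the genes named for the GFP control comparison, at 3.88, 3.75, 3.65 and 3.62 on the log2 scale. Ly6d had 3.59, Ccl2 3.19, Tmem86a 2.40 and Bst2 2.40. Txnip differed by 3.59, which came with a MLX-WT level close to both controls and a MLX-DN level far below them. In the other direction Cilp had -3.62, Ltbp2 -2.25, Postn -1.70, Cmklr1 -1.56 and Bgn -1.35. Cthrc1, a secreted collagen-related protein, fell to 0.544, 0.738 and 0.582 FPKM in MLX-WT, against 7.04, 6.995 and 6.10 FPKM in GFP control, and had -1.23 against MLX-DN. Mitosis genes were higher than MLX-DN in 35 of 35 (median 0.47) and replication genes in 36 of 42 (median 0.39), although both lists were mostly lower than GFP control.

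Gain of MLX could be set against its loss with no library in common, MLX-WT against GFP control on the one side and MLX shRNA against non-targeting shRNA on the other. With the MLX shRNA 3674 of all tested genes were higher (30.8%) and 4695 lower (39.3%) than with the non-targeting shRNA, together 70.1%, or 4675 and 3716 with median centring. Leaving out Mlx, 3299 genes were higher in MLX-WT than GFP control, and of these 1097 (33.3%) were lower with MLX shRNA and 1409 (42.7%) higher. The 1097 make up 23.4% of all genes lower with MLX shRNA. With Mlx counted, genes higher in MLX-WT and lower with MLX shRNA were 9.19% of all tested genes and genes higher in both were 11.8%. Of the 5100 genes lower in MLX-WT, 1109 (21.7%) were higher with MLX shRNA and 2552 (50%) lower, and these are 30.2% and 54.4% of the genes called in those directions with MLX shRNA and 9.28% and 21.4% of all tested genes. For opposite movement these shares stand beside 39.3% and 30.8% of all tested genes. Of the 113 genes at least 2-fold higher in MLX-WT, 55 (48.7%) were lower with MLX shRNA and 39 (34.5%) higher. Of the 86 at least 2-fold lower, 9 (10.5%) were higher with MLX shRNA and 64 (74.4%) lower.

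**Figure D5:**
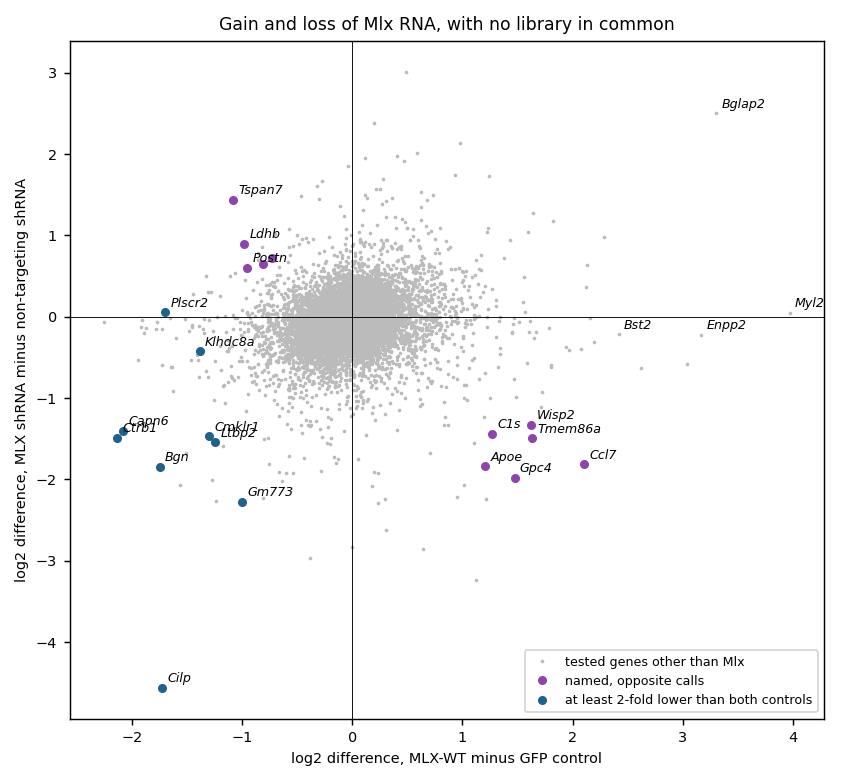
Log2 difference of MLX-WT from GFP control on the horizontal axis and of MLX shRNA from non-targeting shRNA on the vertical axis, on the log2(FPKM + 2) scale, for tested genes without Mlx, with 11 named genes of opposite calls in purple and genes at least 2-fold lower than both controls in blue. Of the genes at least 2-fold lower in MLX-WT, 64 of 86 were also lower with MLX shRNA.

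The genes that moved in opposite directions by the widest margin included secreted and surface proteins among the rises. Ccl7 fell to 0.462 FPKM with MLX shRNA, against 6.67 FPKM with the non-targeting shRNA, and Tmem86a fell to 2.52 FPKM, against 10.7 FPKM. C1s, a protease of the complement cascade, had log2 differences of 1.27 for MLX-WT against GFP control and -1.44 for the shRNA against its control. Apoe, the lipid-carrying apolipoprotein, had 1.21 and -1.83, and Wisp2, a CCN matricellular protein, had 1.63 and -1.33. Gpc4, a surface heparan sulphate proteoglycan, was at 3.55, 4.02 and 3.23 FPKM in MLX-WT, against 0.0208, 0 and 0.0223 FPKM in GFP control, but the non-targeting shRNA libraries lay above MLX-WT by a log2 difference of -0.52.

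Among the falls with opposite movement, Tnc, the matrix glycoprotein tenascin C, was at 193, 191 and 194 FPKM in MLX-WT, against 316, 317 and 329 FPKM in GFP control, and rose by 0.72 on the log2 scale with MLX shRNA. Postn rose by 0.60 with the shRNA and was lower in MLX-WT than in both controls and MLX-DN. Ldhb, the lactate dehydrogenase chain of oxidative tissue, was at 5.55, 5.71 and 4.95 FPKM in MLX-WT, against 12.8, 12.1 and 12.97 FPKM in GFP control, and rose by 0.90 with the shRNA. The non-targeting shRNA libraries averaged 5.21 FPKM of Ldhb, and MLX-WT differed from them by 0.04, which was not called. Dusp6, a phosphatase of ERK, had -0.81 for MLX-WT against GFP control and 0.64 for the shRNA. Tspan7, a tetraspanin, had -1.09 and 1.44, but was higher in MLX-WT than with the non-targeting shRNA by 1.19. By contrast the matrix genes that fell at least 2-fold against both controls fell with the shRNA as well, with log2 differences of -1.84 for Bgn, -4.56 for Cilp and -1.54 for Ltbp2, and Col1a1 had -2.06.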

How the data were processed

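Polyadenylated RNA from C2C12 cultures was sequenced from TruSeq stranded libraries, per the labels' protocols. The authors deposited 1 table of log2 expression values per gene and library, whose header and values read as log2(FPKM + 2): the lowest value is exactly 1 in every library. Per the submitters' processing notes, CASAVA, TopHat2, STAR and build mm9 were used, with no order or version given; the tool that counted reads, its use of strand and the normalization are not given in the sources used here. Depth was read from whole-read steps in low FPKM values (66.4% to 70.2% of low values lay within 0.05 reads of a whole number), so it is an estimate, and a floor of 3 reads covers counting error only.

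The 23352 genes were filtered to those that reached FPKM 1 in 3 or more of the 15 libraries. The deposited values were fitted with limma 3.58.1 in R 4.3.3 with a mean per group over all 15 libraries, a trended prior, and Benjamini-Hochberg adjustment over 11945 genes at 0.05. The contrasts were MLX-WT against GFP control, non-targeting shRNA and MLX-DN, and MLX shRNA against non-targeting shRNA. Gene order and exon overlaps came from a GRCm38 annotation in which 93.8% of tested genes were placed; no coordinates of the mm9 files are printed. Genes named by the rule below whose exons overlap another tested gene by at least 10%, on the same or the opposite strand, were listed. The stretches of chromosome 8 were defined by running medians of 15 genes with mean FPKM of at least 5.

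Genes were named by a rule: Mlx and its network, the largest changes with no overlap of groups, every gene changed 2-fold or more, and alike, against each control, the leading members of each list, the strongest opposite changes with the shRNA, and the largest differences from MLX-DN. The members and lists were chosen with earlier results of these data known. The rule names many more genes than the text gives, and the others are not reported here. Scripts were tested on simulated data. The main fit did not pair libraries by replicate number. Every same-number correlation of deviations was below 0.1, which leaves a weak pairing undecided. Alternatives tried were the offset, the expression filter, the scaling of libraries, the groups in the fit, the replicate block, each library left out, and, added after seeing the data, the chromosome 8 stretches left out.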

Additional observations from a re-analysis of the deposited data

How the results depend on the processing

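Fold-change counts depended most on the offset added to FPKM. With an offset of 1, 177 genes were at least 2-fold higher and 143 lower in MLX-WT than GFP control, and 69 higher and 15 lower than both controls. With an offset of 0.1 these counts were 326, 293, 131 and 52, and at 1.5-fold 720 were higher and 919 lower than GFP control. Median centring gave 2165 genes higher and 1625 lower than both controls, against 1362 and 2813 as deposited. Other counts stayed within 1.5 times under the alternatives run. Leaving out each library in turn gave 3055 to 3187 genes higher and 4705 to 4952 lower than GFP control, 412 to 423 and 399 to 428 at 1.5-fold, and 111 to 114 and 82 to 86 at 2-fold, with Mlx at 5.06 to 5.10. It gave 1240 to 1326 higher and 2432 to 2702 lower than both controls, and 38 to 42 and 8 to 9 at 2-fold. Against the non-targeting shRNA it gave 2843 to 2987 and 4855 to 5080, against MLX-DN 4359 to 4560 and 3707 to 3838, and for the shRNA contrast 3441 to 3628 and 4448 to 4567. Calls for gain and loss of MLX were opposite in 2029 to 2278 genes and the same in 3749 to 4021. Of 1504 pairs of a named gene and an alternative, 1487 kept their direction and call, none reversed, and the changes were in Mlxip, Max, Myc and Des. Whether replicate numbers pair the libraries was left undecided. Same-number correlations of deviations were small, at 0.0411, 0.0512 and 0.0144, but each was above those with other numbers. With the replicate block 3324 genes were higher and 5103 lower than GFP control. Leaving out the chromosome 8 stretches, an alternative added after seeing the data, gave 3201 higher and 5089 lower, and 99 and 86 at 2-fold. The causes of these shifts were not tested.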
